A study of Homo sapiens with 2 samples.

Results

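A set of 9 genes of the complement system was followed through RNA-seq of MDA-MB-231 cells, a human triple-negative breast cancer line. They are the components C3, CFB, C1R and C1S, the soluble regulators SERPING1 and CLU (clusterin), and the membrane regulators CD46, CD55 and CD59, that is, 9 of the 49627 genes listed in either library. The members were named by symbol, and C3 and CLU were chosen by their own FPKM values in these libraries, being among the largest differences in opposite directions, so their differences are described here and support nothing further. The RNA came from cells grown in L15 medium with fetal bovine serum and without added carbon dioxide. In the RBMS1 knockdown library the cells carried an shRNA against RBMS1, an RNA-binding protein, delivered by lentivirus in the pLKO.1 plasmid, and in the control library they carried pLKO.1 as control. Both lines were stable infected lines of the same parent, and whether either was 1 clone is not given in the sources used here. Each group had 1 library, so there was no replicate check, and every value below describes these 2 libraries.

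Complement is a cascade of serum proteins in which C3 is the central step. The C1r and C1s proteases start the classical pathway, factor B (CFB) forms the enzyme of the alternative pathway that cleaves C3, and cleaved C3 binds covalently to nearby surfaces through an internal thioester. Host cells restrain the cascade with C1 inhibitor (SERPING1) and clusterin in the fluid phase, and on their surface with CD46 and CD55, which act on the C3-cleaving enzymes, and CD59, which blocks the membrane attack complex.

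Levels are given in FPKM, which scales the fragments of a transcript by its length and by the size of the library, summed over the transcripts of a gene. The range behind each level is the interval that Cufflinks computed within the library, also summed over transcripts, and it says nothing of the variation between cultures. Differences are log2 ratios of FPKM + 1, knockdown over control. A gene was compared when its mean over both libraries was at least 1 FPKM, which 6 of the 9 members reached, and a difference of 2-fold on that scale was counted. Among those 6 members, 2 were at least 2-fold lower (C3 and CFB) and 1 was at least 2-fold higher (CLU), against 2.8% of the 11186 compared genes lower and 2.96% higher. Nothing is read from these counts, because the members were chosen with their values known. The median log2 ratio was -0.43 over the 6 members and 0.02 over all compared genes.

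RBMS1 itself had 3.76 FPKM after knockdown and 24.1 FPKM in control cells, or 15.6% of control, in the direction of the labels. The cell line label was checked against markers. VIM, CD44, KRT18, KRT8, EGFR and AXL all passed 1 FPKM, the estrogen and progesterone receptor genes ESR1 and PGR stayed under 0.1 FPKM in both libraries, and FOXA1 stayed under 1 FPKM. Of the same list of luminal or HER2 markers, ERBB2 was at 7.50 and 7.0 FPKM and GATA3, a luminal transcription factor gene, at 2.11 and 1.56 FPKM, so 2 of its 5 genes passed. None of the 7 leukocyte, 5 hepatocyte and 3 endothelial markers reached a mean of 1 FPKM. Their summed levels were 1.76 and 1.74 FPKM for leukocytes, 0.163 and 0.0334 for hepatocytes, and 0.0386 and 0.0761 for endothelium in the knockdown and control library. The highest leukocyte markers were CD14 (0.783 and 0.968 FPKM) and CSF1R (0.680 and 0.731 FPKM), with PTPRC at 0.115 and 0.0170 FPKM and CD68 and CD3E among those listed at 0 in both. ALB was at 0.132 FPKM after knockdown and listed at 0 in the control library, PECAM1 was at 0.0307 and 0.0704 FPKM, and CDH5 was listed at 0 in both. The part of such cells in the results was not tested. The depth inferred from the intervals of low genes was about 41800000 fragments in the knockdown library, against about 38500000 in the control library. In such bulk RNA, fewer cells making a transcript and less of it per cell cannot be told apart.

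**Figure D1:**
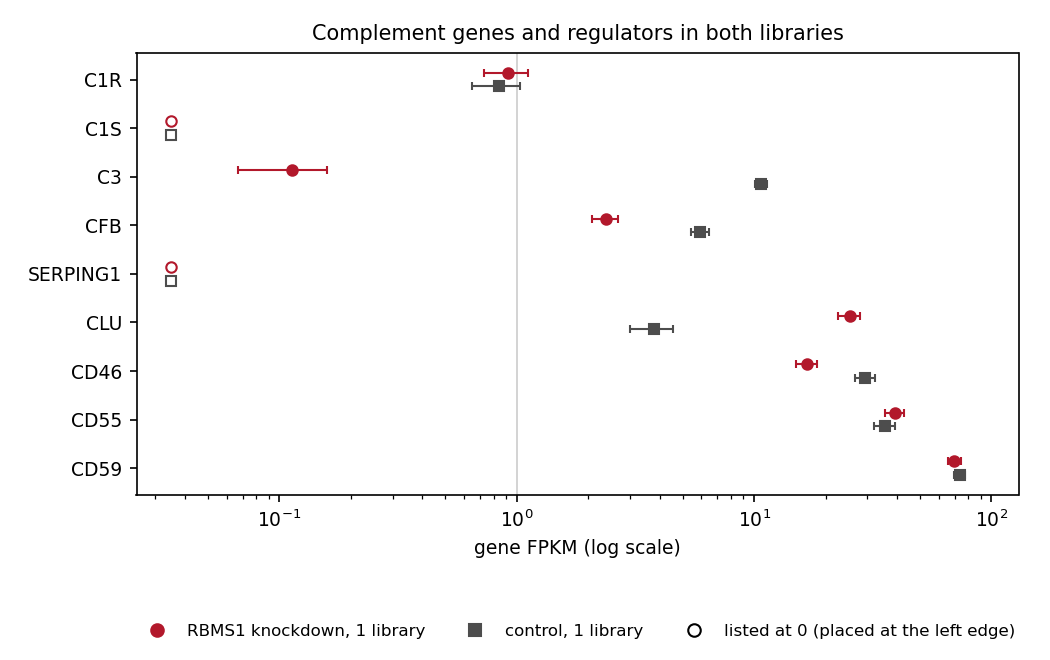
Gene levels of the 9 members in FPKM on a log axis, with red circles for the RBMS1 knockdown library, grey squares for the control library and bars for the interval within each library. C3, CFB, CLU and CD46 have bars that do not meet, while C1R, CD55 and CD59 overlap and C1S and SERPING1, drawn open, are listed at 0.

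The components of the early cascade differed widely in level. C3 stood at 0.113 FPKM (0.0670 to 0.159) in the knockdown library, against 10.7 FPKM (10.1 to 11.4) in the control library. The knockdown value was 1.05% of control, and the log2 ratio was -3.40 (-3.54 to -3.26 between the opposite ends of the intervals). All of the C3 signal came from ENST00000245907, the 41-exon transcript of 5263 nt that encodes the full protein, in both libraries. Of its 18 reference transcripts, all except this 1 were listed at 0. At the inferred depth this corresponds to about 25 fragments after knockdown and 2178 in the control library, which puts the percentage of control between 0.681% and 1.56% (95% exact binomial interval, counting error only). This interval covers that transcript alone, and the upper ends of the C3 transcripts listed at 0 summed to 2.74 FPKM after knockdown and 3.89 FPKM in control.

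C3 ranked 47 from the bottom of the 11186 compared genes, and 6 from the bottom of the 10882 that were above 0 in both libraries. Its nearest protein-coding neighbours in that second order were MMP1 (2.59 and 54.3 FPKM, log2 ratio -3.95) and PDZK1IP1 (0.322 and 14.7 FPKM, -3.57) below it. Above it stood SAA1 (44.3 and 433 FPKM, -3.26), an acute-phase protein gene, and CXCL1 (1.81 and 21.6 FPKM, -3.01), a neutrophil chemokine gene. C3 occupies positions 6677704 to 6730562 of chromosome 19 (GRCh38, minus strand). The codons of its thioester, the site that makes C3 attach to surfaces, are shown because they are in the transcript that was at 1.05% of control. They run from 6694528 to 6694578 with their flanks, read 5′ to 3′ on the minus strand in GENCODE 29, and the capitals mark the 15 bases that encode residues 1009 to 1013 of 1663.
C3 thioester codons: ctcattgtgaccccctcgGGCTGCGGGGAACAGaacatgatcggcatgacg

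CFB, the other component of the alternative pathway enzyme, was lower too but by far less. It was measured at 2.38 FPKM (2.07 to 2.68) after knockdown and at 5.93 FPKM (5.40 to 6.47) in the control library. That is 40.03% of control, with a log2 ratio of -1.04 (-1.28 to -0.80), so CFB lay just past the 2-fold line and one end of its range fell short of it. The inferred fragments were 284 and 655, which gives 34.7% to 46.1% of control for counting error. A single protein-coding transcript of 18 exons, ENST00000425368, carried the whole value in both libraries. CFB is on chromosome 6 from 31945650 to 31952084, plus strand, beside C2, its classical pathway counterpart, which was listed at 0 in both libraries, as was the readthrough gene AL645922.1.

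Of the C1 proteases, C1R had overlapping levels and C1S was listed at 0 in both transcript files. C1R was at 0.919 FPKM (0.727 to 1.11) in the knockdown library, against 0.842 FPKM (0.65 to 1.03) in the control library. The intervals overlap, the log2 ratio was 0.06, and the inferred 102 and 86 fragments allow 81.2% to 147% of control for counting error, so a difference of moderate size was not detectable at this depth. All of it was the 11-exon transcript ENST00000542285 on chromosome 12, minus strand. C1S, its partner on the same chromosome, had 21 reference transcripts, each listed at 0 in both libraries. The upper ends of their intervals summed to 1.51 FPKM after knockdown and to 1.83 FPKM in the control library. The deposited table of both libraries, which holds a selection of transcripts, lists C1R at 0 after knockdown and 0.652 FPKM in control, and C1S at 0.146 FPKM after knockdown (ENST00000406697) and 0.513 FPKM in control (ENST00000328916), so the zeros are not read as absence. Within the span of C1S each library also held 5 assembled transcripts that shared no intron with it, at 0.323 to 0.519 FPKM after knockdown and 0.302 to 0.992 FPKM in the control library. LPCAT3 and EMG1 overlap that span, and the strand setting of the libraries is not given in the sources used here.

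Of the soluble regulators, SERPING1 had 13 reference transcripts, all listed at 0 in both libraries with intervals that end at 0. CLU was the opposite case to C3. It encodes clusterin, a secreted chaperone that binds the terminal complement complex and keeps it out of membranes, and it stood at 25.3 FPKM (22.6 to 27.9) in the knockdown library against 3.79 FPKM (3.0 to 4.57) in the control library. This is 6.67-fold higher, with a log2 ratio of 2.46 (2.08 to 2.85). CLU ranked 95 from the top of all compared genes and 4 from the top of those above 0 in both libraries. Among protein-coding genes of that second order, CCNH (24.8 and 2.003 FPKM, log2 ratio 3.10) was next above it. PI16 (11.1 and 1.49 FPKM, 2.28) and MALSU1 (26.7 and 5.41 FPKM, 2.11) were next below it.

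**Figure D2:**
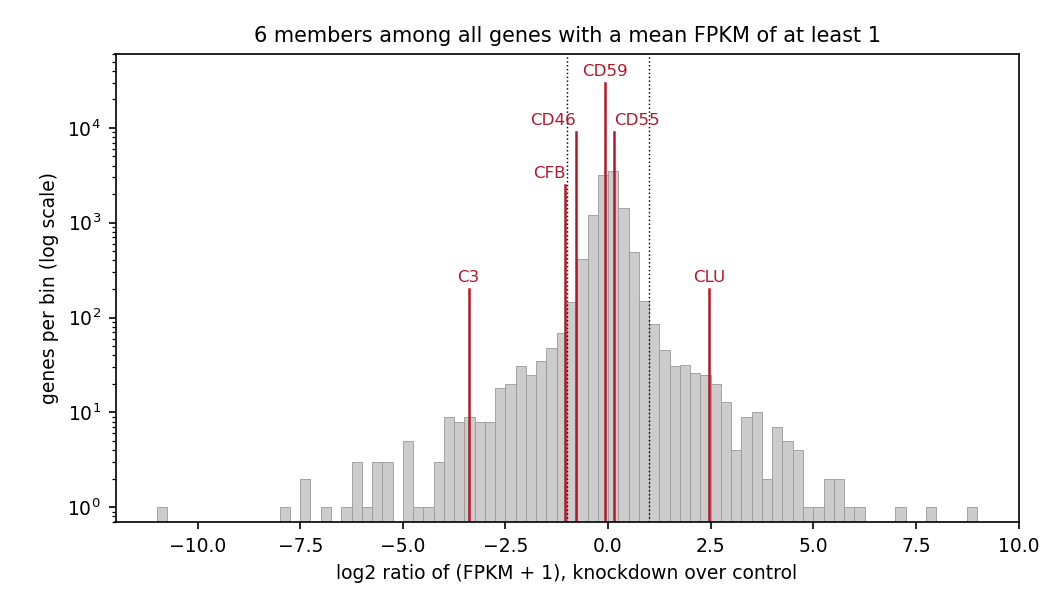
Log2 ratios of (FPKM + 1), knockdown over control, for the 11186 compared genes as a histogram with bins 0.25 wide and a log count axis, with the 6 compared members as red lines of arbitrary height and dotted lines at the 2-fold limits. C3 at -3.40 and CLU at 2.46 lie in opposite tails, CFB at -1.04 lies on the limit, and CD46, CD59 and CD55 lie between the limits.

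The gain of CLU was split over a pair of transcripts of unequal length. The 9-exon protein-coding transcript ENST00000405140 (2098 nt) was at 10.7 FPKM (9.86 to 11.6) in the knockdown library, against 2.35 FPKM (1.95 to 2.76) in the control library. The control library also held an assembled 9-exon transcript of 1684 nt at 1.43 FPKM (1.05 to 1.82). Taking 9-exon structures alone, CLU had 10.7 and 3.79 FPKM and a log2 ratio of 1.30, so it was higher by more than 2-fold on this count too. The rest of the knockdown value was the 4-exon transcript ENST00000522098 (850 nt), at 14.5 FPKM (12.7 to 16.3) or 57.4% of the gene, which was listed at 0 in the control library with an upper end of 0.0822 FPKM. Its annotated coding sequence of 283 codons runs to the last codon of the transcript, against 449 codons in the 9-exon transcript, so the annotation holds it as an incomplete model. The deposited table, a selection of transcripts, does not hold the 4-exon transcript. Among others it gives ENST00000523589 at 9.73 FPKM after knockdown and 2.34 FPKM in control, and ENST00000405140 at 10.3 and 3.44 FPKM. The split of CLU between these forms is thus an estimate of the program, and the 0 in control is not read as absence. Short transcripts weigh more in a sum of FPKM. Aligned bases were also estimated, as Cufflinks coverage times length. This measure reweights the same transcript levels and is not a count of reads. On it CLU had 434 kilobases after knockdown, against 83.3 kilobases in the control library, which after the relative depth of 1.09 is 478% of control.

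By the mean of both libraries the membrane regulators were the most abundant members, although CLU was above CD46 after knockdown. As reported, the gene sums of the membrane regulators moved less than those of C3, CFB and CLU. With 5 FPKM added, however, CD46 was at -0.67 and CFB at -0.57. CD46 encodes the cofactor with which factor I cleaves C3b and C4b, and it was at 16.7 FPKM (15.02 to 18.3) after knockdown and at 29.4 FPKM (26.5 to 32.3) in the control library. The knockdown value was 56.8% of control, the log2 ratio was -0.78 (-1.06 to -0.51), and the intervals did not overlap, but the difference did not reach 2-fold. It depends on the transcripts that Cufflinks assembled. In the control library, 6.05 and 8.02 FPKM were given to an assembled 12-exon and an assembled 13-exon transcript that end slightly short of the annotated ones, and with reference transcripts alone the log2 ratio was -0.06. In aligned bases, estimated from the same assembled and reference transcripts, CD46 was at 62.1% of control.

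CD46 messages differ at the cytoplasmic tail by an exon of 93 nt on chromosome 1 (207790253 to 207790345, plus strand, GRCh38). With the exon in, the 2 libraries held 5.81 FPKM (5.23 to 6.38) in the knockdown and 15.2 FPKM (13.8 to 16.7) in the control. With the exon out, they held 6.68 FPKM (6.06 to 7.30) and 11.5 FPKM (10.3 to 12.7). The exon was therefore in 46.5% (41.8% to 51.3%) of the complete structures after knockdown and in 57.0% (52.0% to 61.9%) of those of the control library, ranges that come close without meeting. Structures with a retained intron or an early end made up 25.2% of CD46 after knockdown (4.196 FPKM) and 9.03% in the control library (2.65 FPKM). The coding part of the exon, 207790253 to 207790301 in ENST00000367042, is given in capitals after the last 12 bases of the exon before it, since its presence sets which of the alternative tails the receptor carries. The transcript with the exon has 377 codons and the one without it, ENST00000354848, has 384.
CD46 tail exon: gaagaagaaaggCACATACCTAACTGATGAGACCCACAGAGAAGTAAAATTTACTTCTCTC

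CD55, or decay-accelerating factor, dissociates the C3-cleaving enzymes and is held in the membrane by a glycosylphosphatidylinositol (GPI) anchor. Its gene sum was 39.2 FPKM (35.5 to 42.9) in the knockdown library, against 35.6 FPKM (32.0 to 39.2) in the control library, with overlapping intervals and a log2 ratio of 0.14. In aligned bases it was at 99.8% of control. The structures behind this sum differed. The 10-exon transcript with the annotated 3′ end, ENST00000367064, was at 10.6 FPKM (9.70 to 11.5) after knockdown and at 18.4 FPKM (17.2 to 19.7) in the control library. Assembled 10-exon transcripts with an earlier 3′ end were at 18.3 FPKM (16.7 to 19.8) and 10.1 FPKM (8.81 to 11.4). The early end thus had 63.3% (59.3% to 67.1%) of the 10-exon signal after knockdown and 35.3% (30.9% to 39.8%) in the control library. Cufflinks placed that early end at 207359770 after knockdown and at 207359613 in the control library, and the early and the annotated forms overlap over most of their length, so the split is an estimate of the program.

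The 11-exon transcript of CD55, ENST00000314754, encodes 440 codons, against 381 in the 10-exon transcript. It stood at 10.1 FPKM (9.07 to 11.04) in the knockdown library, against 6.77 FPKM (5.93 to 7.61) in the control library, with intervals apart and a log2 ratio of 0.51, short of 2-fold. It made up 25.6% and 19.04% of the gene.

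CD59, the GPI-anchored inhibitor of the membrane attack complex, had the highest level of the 9 members. It was at 69.8 FPKM (65.4 to 74.2) after knockdown and at 73.6 FPKM (69.7 to 77.6) in the control library, with overlapping intervals and a log2 ratio of -0.08. Transcripts with the proximal 3′ end held all of it in the knockdown library, against 62.1 FPKM (58.8 to 65.3) in the control library. The remaining 11.6 FPKM (10.9 to 12.2) of the control library, 15.7% of the gene, belonged to an assembled transcript of 7558 nt that runs to the distal 3′ end at 33703009 on chromosome 11. That transcript also begins elsewhere, at 33722952 on the minus strand against 33736439 for ENST00000395850, so the forms differ at both ends. In the knockdown library no transcript with the distal end was above 0. The distal form was above 0 only as that assembled transcript, so the split is an estimate of the program and is not read as absence. Since that transcript is long, the gene looked different in aligned bases, with 1620 kilobases after knockdown, against 2341 in the control library, or 63.5% of control after the relative depth. The deposited structure of the main transcript, ENST00000395850, has 4 exons and 1889 nt, whereas GENCODE 29 gives the same identifier 6 exons and 737 nt, so the annotation behind the files differs from that release here. AL049629.2, which overlaps CD59, was listed at 0 in both libraries.

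The rest of the complement system was mostly low or listed at 0 in these files. Of 61 genes in 6 lists (classical and lectin pathway, alternative pathway, terminal pathway, soluble regulators, membrane regulators and receptors), 11 reached a mean of 1 FPKM and 29 were listed at 0 in both libraries. An exact 0 can be a failed estimate, since 5 genes of GPI anchor synthesis, PIGB among them, were listed at 0 in both libraries as well, so these zeros are not read as absence. Among the 11, 2 were at least 2-fold lower and 2 at least 2-fold higher, with a median log2 ratio of 0.14. Of the 52 genes that are not members, 5 were compared, 1 was at least 2-fold higher and 0 were at least 2-fold lower. Of all compared genes, 5.76% passed 2-fold in either direction. Nothing is read from the lists that hold members, since 3 of their 4 genes past 2-fold are members, and 1 of 5 is too few to compare with that share.

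The gene that passed was CFP, which encodes properdin, the stabiliser of the alternative pathway enzyme. It was at 6.92 FPKM (5.18 to 8.66) in the knockdown library against 1.91 FPKM (1.46 to 2.35) in the control library, a log2 ratio of 1.45. Its 9-exon protein-coding transcript was at 3.97 FPKM (3.40 to 4.54) and 1.76 FPKM (1.38 to 2.14), and 2.62 FPKM of the knockdown value came from a retained-intron transcript of 593 nt. With protein-coding reference and assembled transcripts only, the log2 ratio of CFP was 0.85, and it no longer passed 2-fold. The alternative pathway list thus held C3 and CFB lower and CFP higher, while its remaining gene, CFD, was at 0.908 and 0.97 FPKM.

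In the terminal pathway, C5, from which the membrane attack complex starts, had 2.103 FPKM (1.89 to 2.31) and 0.617 FPKM (0.505 to 0.730), a log2 ratio of 0.94 just under the 2-fold limit on this scale. Without the added 1 FPKM it was 3.41-fold higher, with intervals apart. C6, C7, C8A, C8B and C9 were listed at 0 in both libraries. C1RL, a C1r-like protease gene, was at 1.43 and 1.06 FPKM (log2 ratio 0.24), and C4BPB, a subunit of the C4b-binding protein, at 18.3 and 16.8 FPKM (0.11). Of the receptors, C1QBP, whose product binds the globular heads of C1q and is found mainly in mitochondria, was at 122 and 107 FPKM (0.18). C5AR1, the receptor of C5a, had a mean under 1 FPKM, at 1.04 FPKM (0.458 to 1.63) and 0.201 FPKM (0 to 0.773).

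**Figure D3:**
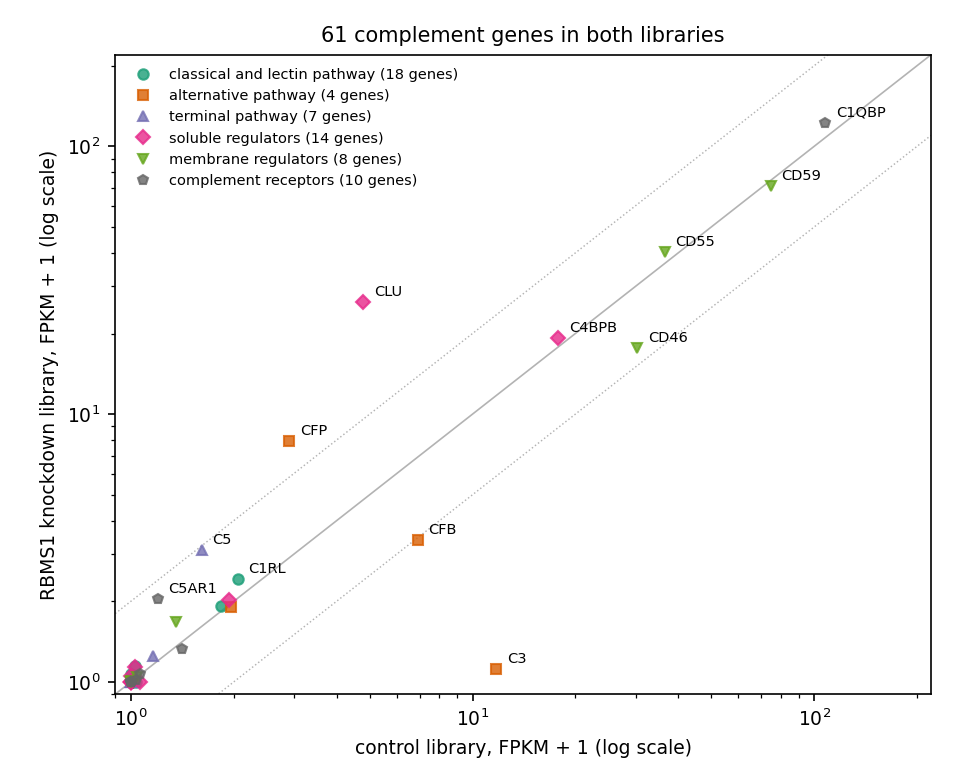
FPKM + 1 of 61 complement genes in the control library (horizontal, log scale) and the RBMS1 knockdown library (vertical, log scale), with 1 symbol per list, a solid line of equality and dotted lines at 2-fold. C3 lies far below the lines and CFB on the lower one, CLU and CFP lie above the upper one, and most of the genes crowd at the origin.

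Genes that act on the members were looked at in the same way, and with 5.76% of all compared genes past 2-fold, lists of this size hold few or none at the background share. GPI anchor synthesis serves CD55 and CD59, and 20 of its 26 listed genes were compared, of which 0 passed 2-fold, with a median log2 ratio of -0.03 and a range from PIGK (8.81 and 13.3 FPKM, -0.55) to PIGP (7.11 and 5.48 FPKM, 0.32). All 8 listed transcription factors of complement genes were compared and 0 passed 2-fold, from CEBPB (7.75 and 14.3 FPKM, -0.81), which encodes C/EBP beta, to HSF1 (36.0 and 26.5 FPKM, 0.43), the heat shock factor. Clusterin is a chaperone, and among 10 genes driven by heat shock factor 0 passed 2-fold, from HSP90AA1 (402 and 508 FPKM, -0.34) to HSPH1 (36.7 and 23.6 FPKM, 0.61). Of 4 receptors of clusterin, LRP8 was compared, at 7.998 and 7.92 FPKM (0.01).

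Promoter windows of RefSeq (GRCh38.p14, 250 bases before to 50 after a start) were matched for 5 members, CFB, C1R, CD46, CD55 and CD59, with 10 windows in all. They were searched on both strands for the NF-κB consensus, C/EBP (TTNNGNAAT), STAT (TTCNNNGAA), interferon-stimulated response (GAAA, NN, GAAA) and heat shock (GAA, NN, TTC, NN, GAA) motifs, which 11.3%, 11%, 7.66%, 3.57% and 0.490% of all 35116 windows hold. The window of CFB (chromosome 6, 31945845 to 31946144, plus strand) had 1 match each to the NF-κB, STAT and interferon-stimulated response motifs, none overlapping another. This window starts downstream of 31945709, where the deposited CFB transcript that carried the whole value begins, so the matches lie within the span of that transcript and not before its start. C1R had 1 C/EBP and 1 STAT match in different windows, CD59 had the same STAT match in a pair of overlapping windows, and CD46 and CD55 had none of the 5. A pair of the CFB matches is shown with flanks, as CFB was the member with a window that lay past 2-fold, and capitals mark the motif. The interferon-stimulated response match lies at chr6:31945945-31945974 and is on the minus strand, and the STAT match lies at chr6:31945993-31946021. A match is a string of letters and not a binding site.
CFB interferon-stimulated response match: acttctgcagTTTCTGTTTCcttgactggc
CFB STAT match: cgcttggatgTTCCGGGAAagtgatgtgg

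The direction of the members was also followed through every other way of computing the ratio. C3, CFB and CD46 stayed below 0 and CLU above 0 in each, with C3 between -6.60 and -1.62, CFB between -1.36 and -0.57, CD46 between -0.93 and -0.06, and CLU between 1.30 and 3.95. CD59 ranged from -0.97 to 0.17, CD55 from -0.75 to 1.01 and C1R from -0.72 to 0.12, so no direction is given for these 3. The ends at -0.97, 1.01 and -0.72 came from the deposited table, which holds other transcripts of these genes than those behind the main values.

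**Figure D4:**
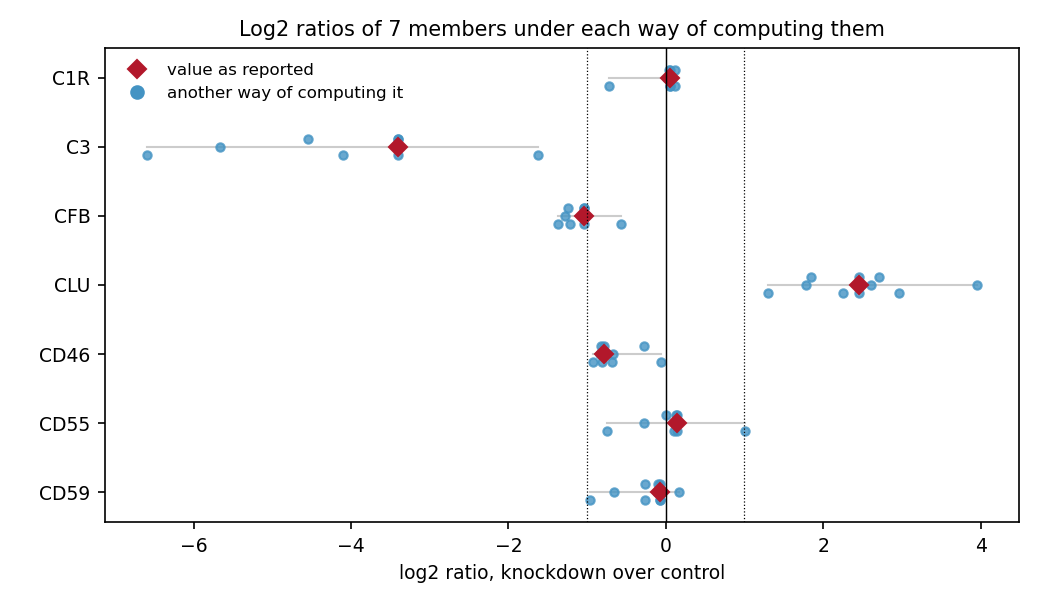
Log2 ratios, knockdown over control, of the 7 members above 0, with red diamonds for the values as reported, blue points for the other ways of computing them, grey lines for their range and dotted lines at the 2-fold limits. C3 and CLU stay on opposite sides beyond 2-fold in all of them, while CD59, CD55 and C1R have points on both sides of 0.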

How the data were processed

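RNA-seq of 2 libraries, 1 per group by the labels, was analysed. The authors deposited Cufflinks transcripts for each library with FPKM, an interval and coverage, including reference transcripts at 0. Per the submitters' processing notes, Bowtie2 2.0.6, TopHat2 2.0.9, Cufflinks 2.1.1 and Cuffdiff 2.1.1 were used. Read length, strand and annotation release are not given in the sources used here. The authors also deposited a table of 7236 transcripts with FPKM in both libraries and their own fold changes, p-values and q-values, of which only the FPKM were used, as an alternative. Being a selection of transcripts, its gene sums are partial.

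Identifiers were joined to GENCODE 29 on GRCh38, where 98.1% of joined transcripts started at the annotated position. Gene FPKM summed the reference transcripts and the assembled transcripts sharing at least 1 intron on the same strand. Ratios were log2((FPKM + 1) / (FPKM + 1)), which understates changes of low genes. A gene was compared at a mean of at least 1 FPKM. Depth was inferred from intervals, taken as FPKM ± 2 SD of a Poisson count, of genes resting on 1 transcript of at least 5000 nt with under 60 fragments, since intervals of higher genes are wider than counting error. Fragments of C3, CFB and C1R were FPKM times length times that depth. CFB and C1R are shorter than the transcripts that set the depth, so their fragments may be overstated and their ranges too narrow. Fragments of the assembled transcripts flagged below came from their own intervals and are not comparable with these. The files hold no counts. Of low single-transcript genes, 62.6% and 62.4% gave values within 0.05 of a whole number, so no count test was run. Reads of overlapping or near-identical genes can be divided between them. The scripts were tested on simulated data, with Python 3.11.15, pandas 2.3.3 and scipy 1.17.1.

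The members and lists were chosen with earlier results of these data known. The text names the 9 members, RBMS1, the lowest and highest compared gene of each list, and up to 2 protein-coding genes on either side of C3 and CLU in the order of ratios. The cell type markers named, CFD, C5AR1, C2, the terminal genes listed at 0, PIGB and the overlapping genes were named after their values were seen. With 1 library per group no test was made. The sequence of 1 exon is not reported here.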

Additional observations from a re-analysis of the deposited data

Results flagged for a closer look

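Some signal lay in assembled transcripts outside the exons of the members, which no comparison used, and was found in the knockdown library with nothing overlapping it in the control library. CD55 held one of 267 nt in an intron at 12.6 FPKM (6.28 to 18.8). CD46 held one of 398 nt at 2.63 FPKM and one of 438 nt at 2.43 FPKM, both in introns. CD59 held one of 295 nt in an intron, with no strand assigned, at 9.08 FPKM (5.02 to 13.1). Each rests on 16 to 20 fragments implied by its interval, and with 1 library per group the difference was not tested. The control library in turn held one near CD55 of 1741 nt at 0.381 FPKM (23 fragments) that nothing overlapped in the knockdown library, and each library held 1 such transcript within the span of C1S, at 0.443 FPKM after knockdown and 0.591 FPKM in control. CD55 also held one of 1307 nt at 0.452 FPKM in the knockdown library alone. It rested on 21 fragments, against 16 fragments for the one of 267 nt at 12.6 FPKM. At such short lengths few fragments gave a high FPKM, so these levels are not comparable with those of longer transcripts.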

How the results depend on the processing

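No paired analysis was possible because each group has 1 library, and for the same reason no replicate could be left out. The depth limits C1R, C1S and other genes near 1 FPKM. Of 72 alternative ratios of the members, 48 moved by less than their interval and 24 moved further. With 0.1 FPKM added, C3 was at -5.67 and CFB at -1.29, and 3 genes of the complement lists were 2-fold higher. With 5 FPKM added, C3 was at -1.62, CFB at -0.57 and CLU at 1.78, and 133 genes were 2-fold lower and 124 higher, among them 1 and 1 of the complement lists. As TPM, C3 was at -4.55, with 671 genes lower and 662 higher of 13711 compared, and 4 complement genes higher. The factors of the 3 scalings were at most 0.03 in log2, but 1 unit added on the TPM scale weighs less than 1 FPKM. With reference transcripts only, CLU was at 2.97, CD46 at -0.060, CD55 at -0.27 and CD59 at -0.27, with 507 lower and 553 higher. With the dominant transcript only, CLU was at 3.95, CD46 at -0.27, CD55 at -0.75 and CD59 at -0.27, with 477 lower and 500 higher and 1 complement gene higher. From the FPKM of the authors' table, C3 was at -4.10, C1R at -0.72, CLU at 1.84, CD55 at 1.01 and CD59 at -0.97. For CD55 that table holds only ENST00000391921, at 1.81 FPKM after knockdown and 0.395 FPKM in control, a small part of the gene. A mean of at least 5 FPKM left 138 lower and 140 higher, 1 and 1 of them complement genes. Genes above 0 in both libraries gave 171 lower and 169 higher. Among alternatives chosen after seeing the data, aligned bases without an added value gave C3 at -6.60, CFB at -1.36 and CD59 at -0.65, 9-exon transcripts gave CLU at 1.30, the proximal 3′ end alone gave CD59 at 0.17, and protein-coding reference with assembled transcripts left 1 complement gene higher, CFP falling to 0.85. The causes were not tested beyond what each construction shows.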
